A study of Mus musculus with 18 samples.

Results

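Chemokines and their receptors were followed in mammary tumours driven by an ERBB2 transgene in mice. The members were the chemokine ligands named Ccl or Cxcl with a number, Cx3cl1 and Xcl1, and the receptors named Ccr or Cxcr with a number, Cx3cr1 and Xcr1. A probe set, the group of array probes read as 1 value, was used where the platform annotation gave it a single gene, and the probe set with the highest mean stood for its gene. That left 52 members, 34 ligands and 18 receptors, of 19938 genes in all.

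Total RNA of 18 tumours was hybridised to single-colour Affymetrix arrays, and the deposited values are on a log2 scale, so that a difference of 1 is a doubling. All mice carried the ErbB2 protooncogene under the MMTV promoter, which drives it in mammary epithelium among other sites (strain FVB/N-Tg(MMTVneu)202Mul/J), and the tumours were labelled luminal and ERBB2+. KO mice lacked Snai2, a zinc finger transcription factor, through the allele Snai2tm2Grid of strain B6;129S1-Snai2tm2Grid/J, in every cell and not in the tumour alone. WT mice had intact Snai2. The groups were KO parous with metastasis (3 arrays, 2 samples) and without (3), KO nulliparous with metastasis (1) and without (3), and, with metastasis throughout, WT parous (4) and WT nulliparous (4). Ages were not given in the sources used here. Every WT tumour came from a mouse with metastasis, so outside the parous and lone nulliparous KO mice with metastasis, genotype and metastasis status cannot be told apart.

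Chemokines are small secreted proteins that guide migrating cells through receptors coupled to G proteins. Inflammatory chemokines are made on demand: Cxcl9, Cxcl10 and Cxcl11 are induced by interferons and call activated T cells and natural killer cells through Cxcr3, while the monocyte-attracting CC chemokines act largely through Ccr2. Homeostatic chemokines such as Cxcl12, Cxcl13 and Ccl19 place cells within tissues, and Ccl28 is known from mucosal and lactating mammary epithelium. In a tumour these transcripts can come from epithelium, stroma or infiltrating leukocytes. In RNA of whole tumours, fewer cells of a type and less RNA per cell cannot be told apart.

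A pair of arrays, replicates 2 and 3 of the KO parous group with metastasis, differed with an SD of only 0.102 over the 10252 brighter genes (mean log2 of 8 or more). Among the 153 array pairs the next smallest SD was 0.285. Their mean was used as 1 sample, which left 17. The labels call the arrays biological replicates, and the small number of arrays limits the precision. Snai2, the targeted gene, read 6.28 to 6.79 (median 6.59) in the 9 KO samples and 6.68 to 7.09 (median 6.81) in the 8 WT samples, with 7 of 9 KO samples below the lowest WT sample. The sources used here do not place its probes inside or outside the deletion. The epithelial markers Krt8, Krt18 and Epcam read above 12.6 on every sample. WT nulliparous replicate 1 stood apart by its mean skeletal muscle marker level (10.92, against 7.11 to 9.32 in the other 16 samples) and its mean adipocyte marker level (8.63, against 7.23 to 7.87).

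Cxcl9, Cxcl10 and Ccl12 were lower in tumours of WT parous mice than in those of WT nulliparous mice, all with metastasis. No member rose. By limma with Benjamini-Hochberg adjustment over all genes, 3 of 52 members passed the threshold of 0.05, all lower, where 478 of 19938 genes passed (2.4%), 370 of them lower (1.86%) and 108 higher (0.542%). At an unadjusted p under 0.05 stood 16 members, against 16.2% of all genes. Of the 52 members, 39 lay below 0, with a median log2 difference of -0.16, against a median of -0.01 over all genes. The ligands had a median of -0.29 and the receptors of -0.09. In 5 members, all ligands, every parous tumour lay below every nulliparous tumour (7.63% of all genes), and in 0 members above (4.98% of all genes).

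**Figure D1:**
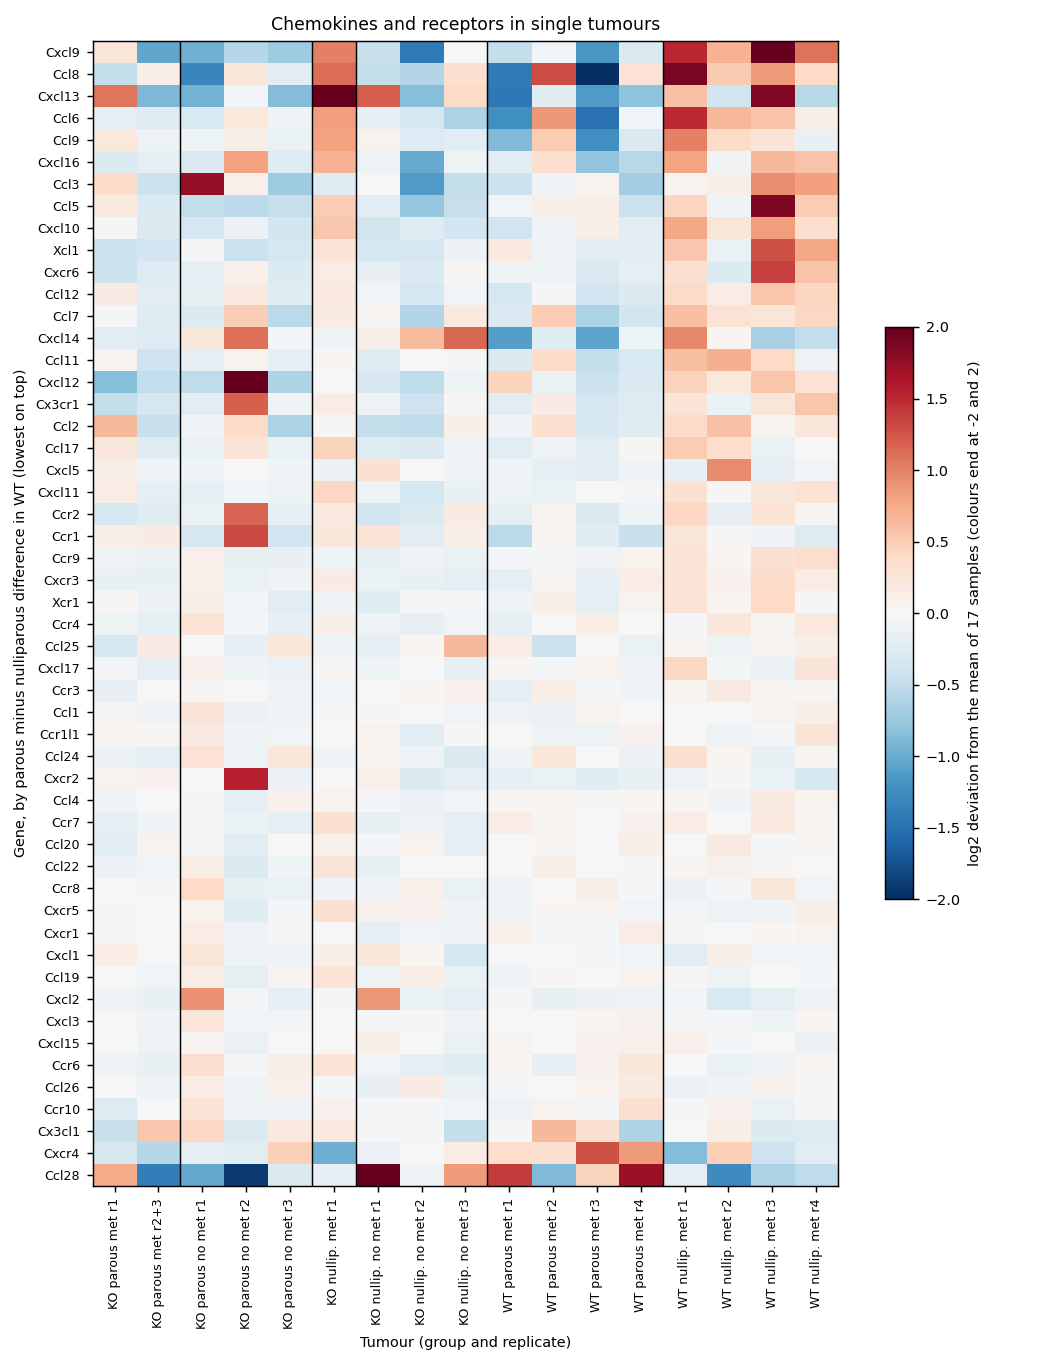
Each cell is the log2 value of a gene in a tumour minus that gene's mean over 17 samples, with tumours in columns by group and the 52 genes in rows, ordered by their parous minus nulliparous difference in WT. Colours end at -2 and 2. The upper rows are red in the 4 WT nulliparous tumours at the right, and single tumours such as KO parous replicate 2 without metastasis hold their own high genes.

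Cxcl9, a Cxcr3 ligand that attracts activated T cells, had log2 values of 7.84, 8.26, 7.15 and 8.03 in the WT parous tumours, against 9.82, 9.01, 10.90 and 9.40 in the WT nulliparous tumours. Every parous tumour lay below every nulliparous one. The difference was -1.96 (SE 0.42, adjusted p = 0.0336), or 3.89-fold lower, with means of 7.82 ± 0.48 in parous and 9.78 ± 0.81 in nulliparous tumours (SD, n = 4 each).

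Cxcl10, a second ligand of Cxcr3, read 6.23, 6.55, 6.76 and 6.42 in the WT parous tumours and 7.41, 6.87, 7.46 and 6.97 in the WT nulliparous tumours. The groups did not overlap, though parous replicate 3 came close to nulliparous replicate 2. It was 1.61-fold lower in parous tumours (log2 difference -0.69, SE 0.14, adjusted p = 0.0295). Ccl12, a CC chemokine of the mouse that attracts monocytes, read 6.09, 6.41, 6.05 and 6.16 in parous and 6.82, 6.58, 6.99 and 6.87 in nulliparous tumours. It was 1.55-fold lower, again without overlap (log2 difference -0.64, SE 0.13, adjusted p = 0.0271). Both are dim on the array, where these normalized values compress differences.

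These calls rest on few tumours. The number of members called was 0 without WT parous replicate 1 or 4 or without WT nulliparous replicate 1, 3 or 4, and 1 without WT parous replicate 3. It was 4 without WT parous replicate 2, where Ccl6 and Ccl9 joined and Cxcl10 was lost. It was 7 without WT nulliparous replicate 2, where Cxcr4, Cxcr6, Ccr9 and Xcl1 joined the 3. When only the WT groups were fitted, Cxcl9 and Ccl12 were called and Cxcl10 was not (adjusted p = 0.0609). With 1 of the 8 tumours left out in turn the log2 difference ran from -2.22 to -1.59 for Cxcl9, from -0.79 to -0.59 for Cxcl10 and from -0.71 to -0.58 for Ccl12.

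The 250 bases before the annotated start of these 3 genes are shown because they are the members that fell, and interferon and inflammatory signals reach such genes through short promoter motifs. Sequences are from RefSeq, build GRCm38.p6, written 5′ to 3′ on the gene's strand. Cxcl10 lies at chr5:92348890-92349139 and Cxcl9 at chr5:92328080-92328329, both on the minus strand and next to each other in a cluster of CXC genes, and Ccl12 at chr11:82101595-82101844 on the plus strand. Capitals mark matches to an interferon-stimulated response element (GAAANNGAAA), a gamma-activated site (TTCNNNGAA) or a kappa B site, searched on both strands of windows that run from 250 bases before to 50 bases after the start.
Cxcl10: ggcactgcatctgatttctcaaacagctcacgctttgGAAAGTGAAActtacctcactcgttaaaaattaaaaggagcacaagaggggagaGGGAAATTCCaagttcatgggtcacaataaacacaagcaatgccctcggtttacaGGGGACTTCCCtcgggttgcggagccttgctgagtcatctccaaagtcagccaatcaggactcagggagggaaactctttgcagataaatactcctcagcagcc
Cxcl9: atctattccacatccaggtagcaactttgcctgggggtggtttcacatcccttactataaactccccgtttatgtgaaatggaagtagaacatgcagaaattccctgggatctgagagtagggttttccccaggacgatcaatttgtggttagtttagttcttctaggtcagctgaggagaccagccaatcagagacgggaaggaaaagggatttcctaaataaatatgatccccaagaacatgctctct
Ccl12: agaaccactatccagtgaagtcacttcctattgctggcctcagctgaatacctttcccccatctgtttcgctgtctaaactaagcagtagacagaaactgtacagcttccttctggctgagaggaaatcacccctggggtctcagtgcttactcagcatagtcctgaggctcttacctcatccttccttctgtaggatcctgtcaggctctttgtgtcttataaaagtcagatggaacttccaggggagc

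In the Cxcl10 window the response element lay at positions -213 to -204 relative to the start, a kappa B match at -159 to -150, and 2 overlapping kappa B matches began at -104 and -103. Of the 27025 genes with such a window, 3.99% held the response element, 9.55% the gamma-activated site and 9.55% a kappa B match, counted over all windows of a gene (over the 32851 windows themselves, 3.44%, 8.30% and 8.46%). Of the 38 members with a window, 3 held the response element (Cxcl10, Cxcl14 and Ccl19), 4 the gamma-activated site and 10 a kappa B match. The kappa B matches included Cxcl1, Cxcl2 and Cxcl3, neutrophil-attracting ligands, and Ccl20. The windows of Cxcl9 and Ccl12 held 0 matches. Only exact matches to these letter patterns were searched, so this does not show that the 2 promoters lack interferon or kappa B elements. These are matches of letters and not measured binding.

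Cxcl11 and Ccl5, the other interferon-induced ligands, lay below 0 without passing. Cxcl11, the third Cxcr3 ligand, read 6.42, 6.38, 6.51 and 6.48 in WT parous and 6.81, 6.54, 6.74 and 6.80 in WT nulliparous tumours, with no overlap (log2 difference -0.28, SE 0.09, adjusted p = 0.116). Ccl5, which attracts T cells and monocytes, read 8.74, 8.90, 8.93 and 8.37 in parous and 9.23, 8.71, 10.66 and 9.30 in nulliparous tumours (log2 difference -0.74, SE 0.31, adjusted p = 0.261). Its groups overlapped, and nulliparous replicate 3 stood highest: without that tumour the Ccl5 difference was -0.34. Cxcr3, the receptor of the 3 CXC ligands, had a difference of -0.26 (SE 0.09, adjusted p = 0.144).

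**Figure D2:**
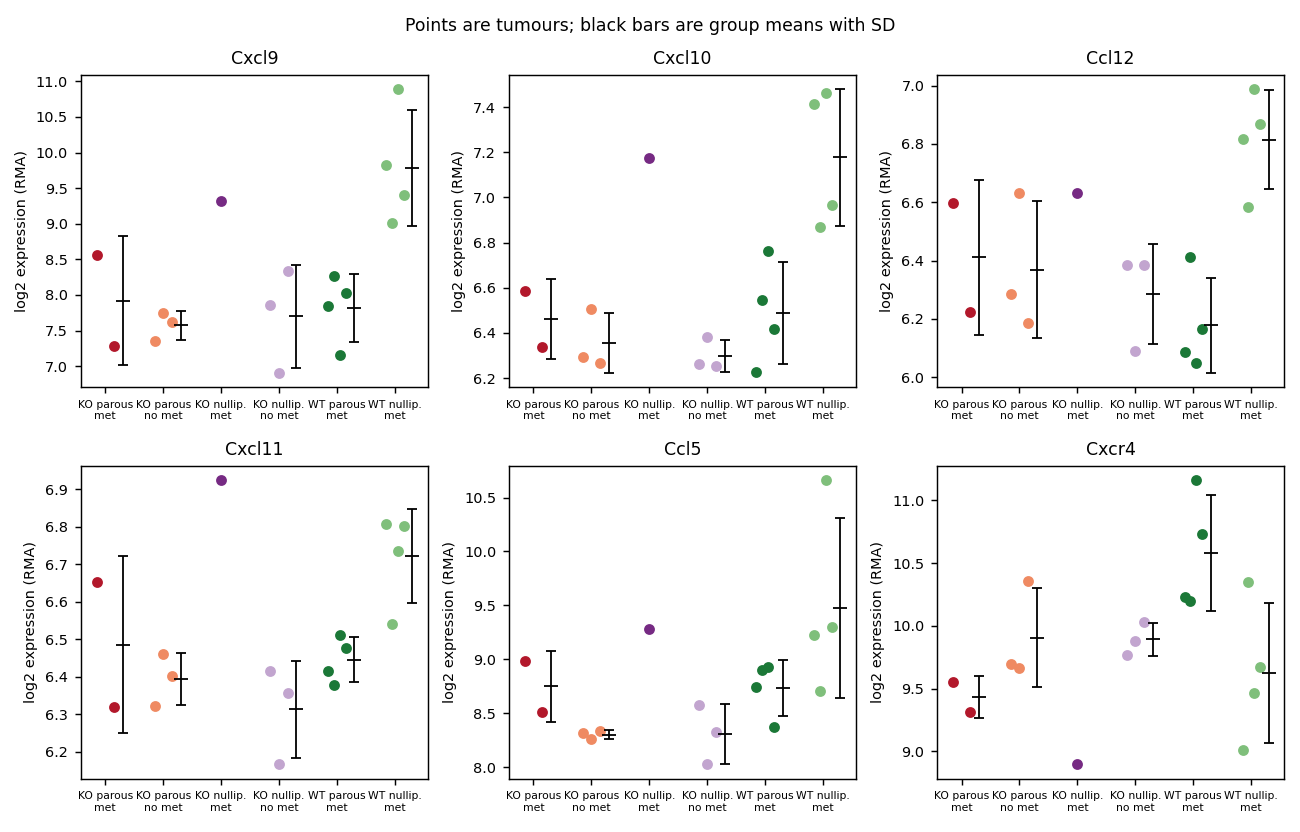
Log2 expression of 6 genes in each tumour, by group, with the mean and SD of the group as black bars. Cxcl9, Cxcl10, Ccl12 and Cxcl11 are higher in all 4 WT nulliparous tumours than in all 4 WT parous tumours, while Cxcr4 runs the other way and overlaps. The lone KO nulliparous tumour with metastasis has no bar.

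Interferon-stimulated genes lay lower beside these members, as did the markers of some leukocytes but not of all. Of 22 interferon-stimulated genes that are not chemokines, 22 lay below 0 and 14 fell, with a median of -1.58, and their mean level ran from 8.51 to 9.62 in WT parous and from 10.46 to 11.10 in WT nulliparous tumours. Of 17 T and natural killer cell markers, 17 lay below 0, and Nkg7 (-1.48) and Ncr1 (-0.40) fell; the mean of the list ran from 6.28 to 6.38 in parous and from 6.42 to 7.30 in nulliparous tumours. Of 16 macrophage markers, 15 lay below 0 and 0 passed (list mean 8.74 to 9.73 in parous, 9.24 to 9.68 in nulliparous tumours). Median differences of the other lists were -0.73 for fibroblasts, -0.67 for skeletal muscle, -0.55 for adipocytes (in which Lipe fell), -0.22 for endothelium, -0.14 for dendritic cells, -0.08 for B and plasma cells, -0.04 for luminal epithelium and 0.07 for neutrophils. The part of these cells and of interferon genes in the chemokine differences was not tested, and array values have no zero by which a marker could be called absent.

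The monocyte-attracting CC ligands lay below 0 in 4 of 4 members. Beside Ccl12 these were Ccl7 (-0.59), Ccl2 (-0.39) and Ccl8 (-1.53, SE 0.69, adjusted p = 0.294), none of which passed. Ccl8 read 7.31, 10.01, 6.11 and 9.001 in WT parous tumours and 10.60, 9.25, 9.57 and 9.12 in WT nulliparous tumours, so the parous tumours alone ran from 6.11 to 10.01. Without parous replicate 3 the Ccl8 difference was -0.86. Ccl6, a CC chemokine of rodents that attracts myeloid cells, had the same shape, with 7.51, 9.61, 7.24 and 8.68 in parous and 10.23, 9.41, 9.32 and 8.87 in nulliparous tumours (log2 difference -1.20, SE 0.43, adjusted p = 0.176). In both genes parous replicates 1 and 3 were low and replicate 2 was as high as the nulliparous tumours. Fibroblast and macrophage marker means were also highest in replicate 2 and lowest in replicate 3 among the WT parous tumours; their part in the Ccl8 and Ccl6 spread was not tested. Ccl3, an inflammatory CC ligand, stood at -0.77 (adjusted p = 0.438). Its groups did not overlap, but only barely: the highest WT parous tumour read 8.0196 and the lowest WT nulliparous tumour 8.0233.

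No member of the other ligand classes passed. The 5 neutrophil-attracting CXC ligands ran from -0.28 (Cxcl5) to 0.07, and 4 of the 5 lay above 0. The Cxcl5 value came from WT nulliparous replicate 2: without that tumour it was -0.01. The eosinophil-attracting Ccl11 stood at -0.58 (adjusted p = 0.152). Among the dendritic cell and T helper ligands, Ccl17 stood at -0.31, with Ccl20 and Ccl22 both at -0.01. Cxcl16, a membrane-bound ligand of Cxcr6, stood at -0.79 (adjusted p = 0.215), and Cx3cl1, the membrane-bound ligand of Cx3cr1, at 0.19. Cx3cl1 read 10.03, 10.72, 10.37 and 9.45 in WT parous and 10.06, 10.19, 9.79 and 9.81 in WT nulliparous tumours, with full overlap.

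Homeostatic ligands spread to both sides, from -1.27 for the B cell attractant Cxcl13 to 1.30 for Ccl28, and 0 of 6 passed. Ccl28, a ligand of Ccr10 made by secretory epithelium, read 10.01, 7.73, 9.07 and 10.33 in WT parous and 8.44, 7.36, 8.01 and 8.12 in WT nulliparous tumours (SE 0.73, adjusted p = 0.418). The groups overlapped, with parous replicate 2 below most nulliparous tumours.

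Among the 18 receptors 13 lay below 0 and 0 passed. Cxcr4, the receptor of Cxcl12, had the largest positive difference of the receptors. It read 10.23, 10.20, 11.16 and 10.73 in WT parous tumours, against 9.01, 10.35, 9.46 and 9.67 in WT nulliparous tumours. Only nulliparous replicate 2 reached the parous range, and the difference of 0.96 (SE 0.27) had an adjusted p of 0.0913. Its ligand Cxcl12 stood at -0.48 (adjusted p = 0.703). Ccr9, the receptor of Ccl25 on gut-homing T cells, read 5.44, 5.44, 5.41 and 5.55 in parous and 5.75, 5.51, 5.79 and 5.83 in nulliparous tumours, overlapping by 1 tumour (log2 difference -0.26, SE 0.08, adjusted p = 0.101). The T cell genes Cxcr6 and Xcl1, the ligand of Xcr1, stood at -0.65 and -0.69 (adjusted p = 0.196 and 0.131). Without WT nulliparous replicate 3 the Cxcr6 difference was -0.36.

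Outside the members, 29 measured genes of the same pathway, such as atypical receptors, G protein subunits, receptor kinases and adhesion partners, gave 1 gene that fell and 0 that rose in WT parous tumours. It was Grk6, a kinase that shuts off activated chemokine receptors, at -0.47 (SE 0.08, adjusted p = 0.0166). Itgal, the alpha chain of a leukocyte integrin, stood at -0.63 (adjusted p = 0.0817), and Rgs2, a brake on G protein signals, at 1.53 (adjusted p = 0.115). In each of the other 7 group comparisons 0 of these 29 genes passed.

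Among KO tumours without metastasis, the comparison of parous with nulliparous mice called 0 of 52 members by limma, as it did 0 of 19938 genes (0%). At an unadjusted p under 0.05 stood 2 members, Ccr6 and Ccl28, against 655 genes (3.29%). Of the members 37 lay above 0, with a median of 0.06 against 0.01 over all genes, and 16 of the 18 receptors lay above 0.

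Ccl28 read 7.60, 6.71 and 8.34 in KO parous tumours and 11.75, 8.54 and 9.48 in KO nulliparous tumours, all without metastasis. The groups did not overlap (lower in 2.9% of all genes), and nulliparous replicate 1 was the highest of all 17 samples. The difference was -2.37 (SE 0.84, adjusted p = 1.0), and -1.46 without that tumour. Ccr6, the receptor of Ccl20, read 6.75, 6.38 and 6.56 in parous and 6.36, 6.23 and 6.17 in nulliparous tumours, above without overlap (3.14% of all genes; log2 difference 0.31, SE 0.11, adjusted p = 1.0). Ccl24, an eosinophil attractant, read 6.71, 6.32 and 6.64 in parous and 6.45, 6.31 and 6.13 in nulliparous tumours and overlapped (log2 difference 0.26, SE 0.13).

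The members that fell in WT parous tumours did not pass in these KO tumours. Cxcl9 read 7.36, 7.75 and 7.61 in KO parous and 7.86, 6.90 and 8.33 in KO nulliparous tumours, Cxcl10 read 6.29, 6.51 and 6.27 in parous and 6.26, 6.38 and 6.25 in nulliparous tumours, and both overlapped. Ccl12 read 6.29, 6.63 and 6.19 in parous and 6.38, 6.09 and 6.39 in nulliparous tumours. The interferon list mean ran from 8.65 to 9.89 in KO parous and from 8.24 to 9.25 in KO nulliparous tumours, and the T and natural killer cell list mean from 6.24 to 6.37 in KO parous and from 6.19 to 6.25 in KO nulliparous tumours.

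**Figure D3:**
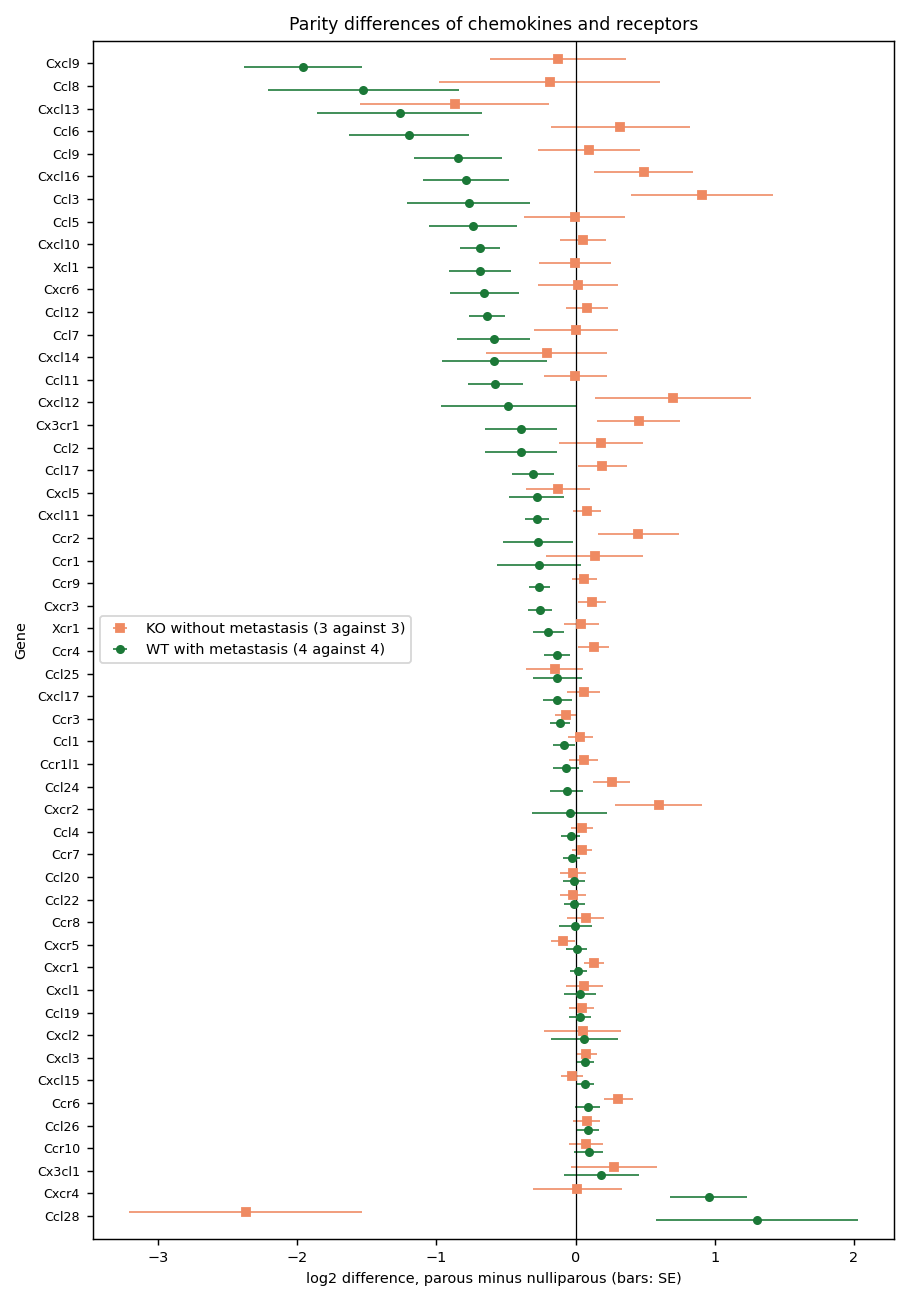
Parous minus nulliparous log2 difference of each member, with its SE as a bar, in KO mice without metastasis (orange squares, 3 against 3) and in WT mice with metastasis (green circles, 4 against 4). Green points at the top lie left of 0 while most orange ones lie near or right of it, and Ccl28 at the bottom lies at -2.37 in KO and 1.30 in WT.

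The difference between these parity contrasts, KO minus WT, was tested directly, with metastasis status changing together with genotype. Of the 52 members 0 passed by limma, as did 0 of 19938 genes (0%), while 12 members and 1922 genes (9.64%) had an unadjusted p under 0.05. The members' median was 0.29 against 0.02 over all genes, with 42 above 0. Ccl12 stood at 0.72 (SE 0.20, adjusted p = 0.317), Cxcl10 at 0.75 (SE 0.22, adjusted p = 0.357), Ccl28 at -3.68 (SE 1.11, adjusted p = 0.357) and Cxcl9 at 1.83 (SE 0.65, adjusted p = 0.404). By sign, 27 members were higher in parous KO and lower in parous WT tumours, 12 lower in both, 10 higher in both and 3 lower in KO and higher in WT. The parity contrasts were thus not shown to differ between the genotypes in any member.

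Among nulliparous mice, KO tumours without metastasis had lower Cxcl10 than WT tumours with metastasis. It was the 1 member of 52 that passed, where 49 of 19938 genes passed (0.246%) and 31 were lower (0.155%) and 18 higher (0.0903%). Cxcl10 read 6.26, 6.38 and 6.25 in the KO tumours, against the 4 WT values above 6.8 given before, a difference of -0.88 (SE 0.15, adjusted p = 0.0436), or 1.84-fold lower. Genotype and metastasis status cannot be told apart here, and the comparison shares the WT nulliparous tumours with the WT parity contrast, so its values are not independent of it.

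At an unadjusted p under 0.05 stood 17 members (12.5% of all genes). In 18 members every KO tumour lay below every WT tumour (6.8% of all genes) and in 1, Ccl28, above (6.05% of all genes). Cxcl9 stood at -2.08 (SE 0.46, adjusted p = 0.0757), Ccr9 at -0.37 (SE 0.08, adjusted p = 0.08), Cxcl11 at -0.41 (SE 0.09, adjusted p = 0.0807) and Ccl5 at -1.16 (SE 0.34, adjusted p = 0.165). Ccr9 read 5.29, 5.41 and 5.35 in the KO tumours and Cxcl11 6.42, 6.17 and 6.36, below all 4 WT tumours in both genes. Ccl5 read 8.58, 8.03 and 8.33 in these KO tumours, also below the 4 WT tumours, and its difference was -0.77 without WT replicate 3.

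The Cxcl10 call ended without any of the 3 KO tumours or without WT replicate 1, 3 or 4, with adjusted p from 0.0676 to 0.213, and without WT replicate 2 there were 5 calls (Cxcl9, Cxcl10, Cxcl11, Ccr9 and Xcl1). It also ended when only these groups were fitted and when the arrays were quantile normalized again (adjusted p = 0.131 and 0.0572). Of the 22 interferon genes, 22 lay below 0 and 10 fell (list mean 8.24 to 9.25 in KO and 10.46 to 11.10 in WT), and of the 17 T and natural killer cell markers 17 lay below 0 and 0 passed (6.19 to 6.25 in KO, 6.42 to 7.30 in WT). Their part was not tested.

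KO and WT tumours of parous mice with metastasis, the pair of groups matched for parity and metastasis status, differed in 0 of 52 members and 0 of 19938 genes (0%) by limma, with 2 members and 1142 genes (5.73%) at an unadjusted p under 0.05. Cxcr4 had the smallest p. It read 9.55 and 9.32 in KO, with the near-identical arrays as 1 value, against the WT parous values from 10.20 to 11.16 given above. The difference was -1.15 (SE 0.34, adjusted p = 0.808), or 2.21-fold lower without overlap. In 9 members KO lay below WT without overlap and in 2 above, against 11.7% and 6.27% of all genes.

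Ccr7, which guides dendritic cells and naive T cells to lymph nodes, read 7.44 and 7.56 in KO and 7.77, 7.67, 7.62 and 7.71 in WT (log2 difference -0.19, SE 0.08, adjusted p = 0.837). Ccr10, the receptor of Ccl28, read 6.73 and 6.98 in KO and 6.88, 7.07, 6.97 and 7.32 in WT, with overlap (log2 difference -0.20, SE 0.13). With single samples left out the Ccr10 difference ran from -0.33 to -0.08, the ends being set by the 2 KO samples, and it was -0.12 without WT replicate 4. The Ccr7 difference was -0.12 after the arrays were quantile normalized again. Of the 17 T and natural killer cell markers, 17 lay below 0 and 9 did not overlap, with a list mean of 6.12 to 6.21 in KO and 6.28 to 6.38 in WT, and 14 of the 18 chemokine receptors lay below 0. Over all genes, 58.4% lay below 0 in this comparison, against 47.5% of the brighter genes, and 11.7% of all genes lay lower without overlap. The part of T and natural killer cells in the receptor values was not tested. The interferon-induced ligands overlapped between these groups. In KO, Cxcl9 read 8.56 and 7.28, Cxcl10 6.59 and 6.34, Cxcl11 6.65 and 6.32 and Ccl5 8.98 and 8.52. The KO samples lay apart in Cxcl9 (SD 0.90), with 8.56 above every WT parous tumour. In Cxcl11 they lay on both sides of the WT parous range. Ccl12 read 6.60 and 6.22 in KO.

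KO parous tumours without metastasis were also set against WT parous tumours with metastasis, where both factors change. Again 0 of 52 members and 0 genes (0%) passed, with 5 members and 1149 genes (5.76%) at an unadjusted p under 0.05. Cxcl14, an epithelial homeostatic ligand, read 9.15, 10.03 and 8.88 in KO and 7.83, 8.68, 7.87 and 8.83 in WT, above without overlap (3.91% of all genes; log2 difference 1.05, SE 0.41, adjusted p = 0.851). Replicate 2 stood highest among them, and without it the Cxcl14 difference was 0.71. Cxcr4 read 9.69, 9.66 and 10.36 in these KO tumours (log2 difference -0.68, SE 0.30) and overlapped WT, and Ccr7 read 7.64, 7.49 and 7.45 (log2 difference -0.16, SE 0.07). Ccl5 read 8.32, 8.26 and 8.33 in these KO tumours, narrowly below all 4 WT tumours (1.93% of all genes; log2 difference -0.43, SE 0.34).

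Within KO parous mice, tumours with metastasis (2 samples) were set against tumours without (3). Of the members 0 passed, as did 0 genes (0%), with 1 member and 805 genes (4.04%) at an unadjusted p under 0.05. Ccr6 read 6.34 and 6.26 with metastasis, below the values of 6.38 to 6.75 without (log2 difference -0.26, SE 0.12, adjusted p = 0.967, and -0.17 without replicate 1 of the tumours without metastasis). Cx3cr1, the fractalkine receptor of monocytes and macrophages, read 8.85 and 8.99 with and 9.11, 10.52 and 9.22 without metastasis (log2 difference -0.70, SE 0.34, adjusted p = 0.967). The value of 10.52 decided its size, since the difference was -0.25 without that tumour. Ccl24 read 6.30 and 6.22 with metastasis, also below the 3 tumours without (log2 difference -0.29, SE 0.15). Members without overlap numbered 7 lower (10% of all genes) and 1 higher (4.41%). Marker lists of other cells lay mostly below 0 beside them: 9 of 9 for fibroblasts (median -0.38), 8 of 8 for endothelium (median -0.35), 7 of 7 for skeletal muscle (median -1.02), 16 of 17 for T and natural killer cells and 13 of 16 for macrophages lay below 0, and 0 passed. Over all genes, 61.1% lay below 0 in this comparison, against 56.2% of the brighter genes. Macrophage list means ran from 8.91 to 9.12 with and from 8.81 to 10.01 without metastasis. The part of these cells was not tested.

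Over all 17 samples, with parity and metastasis status as terms, the KO minus WT contrast again called 0 of 52 members and 0 genes (0%), with 3 members and 885 genes (4.44%) at an unadjusted p under 0.05. Cxcr4 stood at -0.94 (SE 0.29, adjusted p = 0.95), with a range of 8.90 to 10.36 (median 9.69) over the 9 KO samples and 9.01 to 11.16 (median 10.21) over the 8 WT samples. Ccr9 stood at -0.20 (SE 0.09), with 5.29 to 5.58 (median 5.35) in KO and 5.41 to 5.83 (median 5.53) in WT. Cxcl13 stood at 1.58 (SE 0.59, adjusted p = 0.999), and that value rested on the lone KO nulliparous tumour with metastasis, without which it was 0.90.

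The lone KO nulliparous tumour with metastasis has no replicate, so its values are a description. It lay above all 8 other KO samples in 17 members and below them in 2. How many of all genes did so was not counted, so these counts cannot be called particular to the members. Cxcl13 reached 10.29 there, against 8.30, 6.32, 6.27, 7.18, 6.37, 8.43, 6.38 and 7.61 in the other KO samples and at most 9.07 in WT. Its B and plasma cell marker mean was 7.51, against 6.31 to 6.84 in the other 16 samples; the part of those cells was not tested. Cxcl9 (9.32), Cxcl10 (7.17), Cxcl11 (6.93) and Ccl5 (9.29) lay within the range of the WT nulliparous tumours or, for Cxcl11, above it, and its interferon list mean was 10.51. Cxcr4 was at its lowest of all samples there, at 8.90.

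Other tumours also had the highest value of several members. The share of all genes that was highest in each of these tumours was not counted, so a trait particular to the members cannot be read from the counts. KO parous replicate 2 without metastasis had the highest value of 6 members, with Cxcl12 at 10.70 (7.54 to 8.96 in the other samples), Cx3cr1 at 10.52, Cxcr2, a receptor of neutrophil-attracting ligands, at 7.05 (5.18 to 5.59 in the others), and also Ccr1, Ccr2 and Cxcl16. Its fibroblast (10.44), macrophage (10.01), endothelial (9.43), neutrophil (7.40) and luminal (12.08) marker means were the highest of all samples, and their part was not tested. The luminal markers did not move together: Krt19 (9.69), Cldn4 (11.29) and Cdh1 (12.22) were at their highest there, but Krt18 (12.78) was at its lowest. KO parous replicate 1 without metastasis had the highest value of 9 members, among them Ccl3 (9.69) and the neutrophil attractants Cxcl1 (8.07), Cxcl2 (6.82) and Cxcl3. KO nulliparous replicate 1 without metastasis was close behind in Cxcl1 (8.05) and Cxcl2 (6.79). WT nulliparous replicate 3 was highest in 9 members, with Ccl5, Cxcl9, Cxcl10, Ccl12, Xcl1 and Cxcr6 among them and the highest T and natural killer cell marker mean (7.30). WT nulliparous replicate 1, the tumour with muscle and adipocyte markers, was highest in 7, among them Ccl6, Ccl7, Ccl8 and Ccl9.

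The members were then fitted on the list means across tumours, with chemokines kept out of each list. On the interferon list mean 13 of 52 members had a slope above 0 that passed (5.84% of all genes), on the T and natural killer cell list mean 8 (1.78%) and on the macrophage list mean 10 (4.39%), with 0 below 0 on any. The samples share group and tissue makeup, so the slopes were also fitted within groups. There 1 member passed on the interferon list (0.663% of all genes), 3 on the T and natural killer cell list (0.196%) and 5 on the macrophage list (1.37%).

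Xcl1, a chemokine made by natural killer and CD8 T cells, changed by 1.57 log2 units per unit of the T and natural killer cell list (SE 0.11, adjusted p = 5.74e-07), and by 1.56 within groups (adjusted p = 0.0148). Cxcr6 and Ccl5 also passed both ways on that list, at 1.75 and 2.25 within groups. Cxcl16 had slopes of 1.26 across tumours and 1.09 within groups on the macrophage list (adjusted p = 0.000357 within groups), and Ccl7 of 0.92 and 0.90 (adjusted p = 0.00108 within groups). Ccl12, Cx3cr1 and Ccr1 were the other members that passed on it within groups, though Ccr1 did not pass across tumours (adjusted p = 0.0574).

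On the interferon list the slopes of Cxcl9 and Cxcl10 across tumours were 0.97 (SE 0.16, adjusted p = 0.00138) and 0.36 (SE 0.07, adjusted p = 0.00265), but within groups 0.34 (SE 0.36, adjusted p = 0.642) and 0.01 (SE 0.13, adjusted p = 0.96). On that list Cxcl16 alone passed within groups, at 0.84 (SE 0.12, adjusted p = 0.0149). Across tumours Cxcl9 at 3.22 (adjusted p = 0.000351) and Cxcl10 at 1.18 (adjusted p = 0.00238) also passed on the T and natural killer cell list. Cxcl9 passed on the macrophage list at 1.68 (adjusted p = 0.047). Within groups neither gene passed on these lists. There Cxcl9 stood at 2.22 (adjusted p = 0.379) and Cxcl10 at 0.54 (adjusted p = 0.66) on the T and natural killer cell list. Cxcl9 stood at 0.81 (adjusted p = 0.316) within groups on the macrophage list.

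The slopes were fitted again without the 2 samples farthest from the median of each list mean. On the interferon list 5 members then passed, Cxcl9, Cxcl10 and Ccl12 among them. On the T and natural killer cell list 5 passed, with Xcl1 among them and without Cxcr6 and Ccl5 (adjusted p = 0.0819 and 0.0728). On the macrophage list 14 passed, against 10 with all samples. These included Cxcl9 (2.99), Cxcl10 (adjusted p = 0.0115), Cxcl11 (adjusted p = 0.0022) and Ccl5 (adjusted p = 0.0131). Within groups, with all samples, none of them passed: adjusted p was 0.316 for Cxcl9, 0.717 for Cxcl10, 0.537 for Cxcl11 and 0.683 for Ccl5. The samples left out there had the highest macrophage means, KO parous replicate 2 without metastasis (10.01) and WT parous replicate 2 (9.73). Their Cxcl9 values were 7.75 and 8.26, below all WT nulliparous tumours. Ccr1, which passed on this list within groups with all samples, had a slope across tumours of 0.34 without these 2 samples (adjusted p = 0.308).

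**Figure D4:**
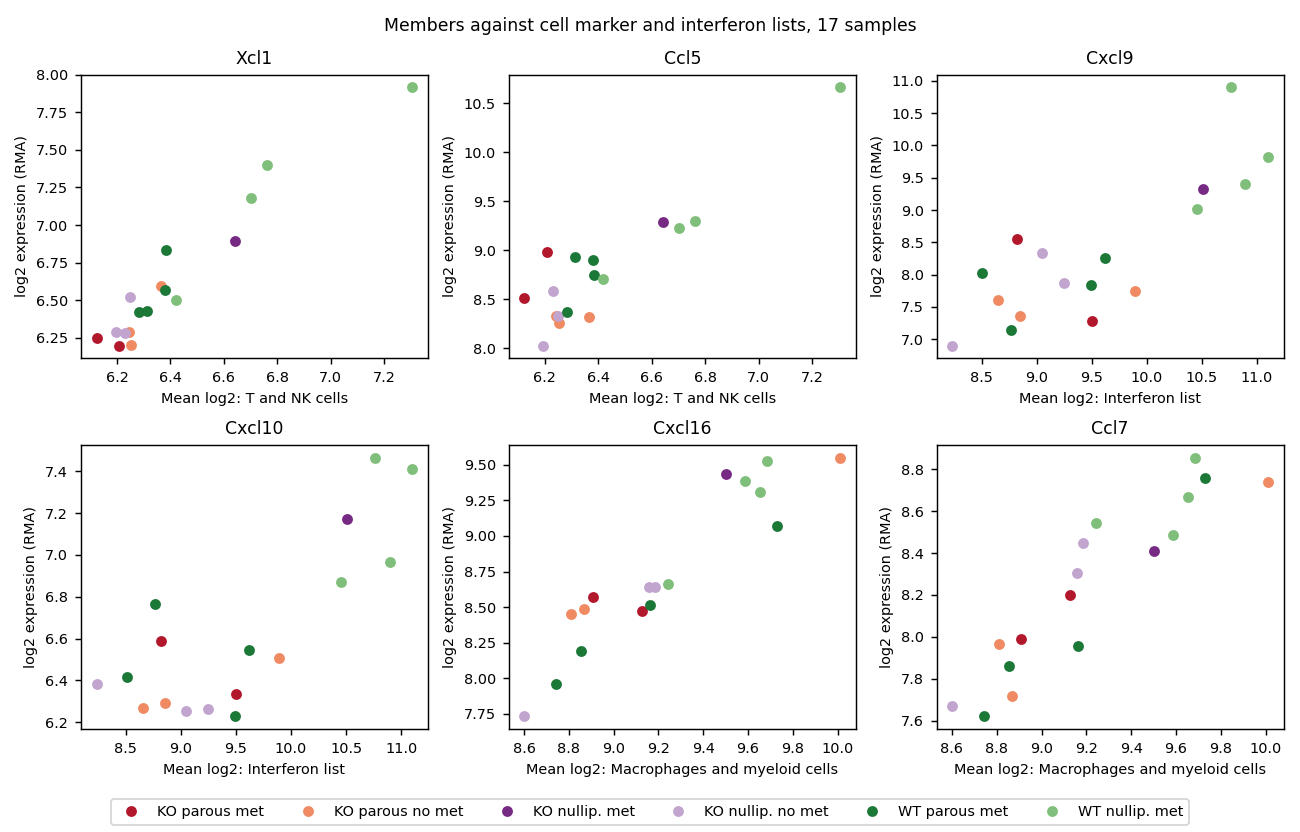
Log2 expression of 6 members against the mean log2 level of a marker or interferon list in the same tumour, for 17 samples coloured by group. Xcl1 and Ccl5 rise with T and natural killer cell markers up to WT nulliparous replicate 3 at 7.30, Cxcl9 and Cxcl10 are high where the interferon list is above 10.4, and Cxcl16 and Ccl7 rise along the macrophage list.

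Probe sets shared by several genes were left out of the members. The 4 probe sets of the Ccl21 genes, ligands of Ccr7, had a mean of 6.82, 6.79, 6.96 and 7.21 in WT parous tumours and 8.12, 7.40, 6.79 and 6.91 in WT nulliparous tumours. The 3 probe sets of the Ccl27 genes, ligands of Ccr10, read 9.53, 9.24, 8.92 and 8.98 in parous and 9.31, 9.02, 9.39 and 9.28 in nulliparous tumours. Both overlapped between the groups. The 52 members lay mainly on chromosomes 11 (14 genes), 5 (11) and 9 (11), where CC ligands, CXC ligands and receptors form clusters.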

How the data were processed

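Log2 values of 35556 probe sets on 18 arrays were deposited. The submitters' processing notes name RMA, which corrects background, normalizes by quantiles and summarises probes, and the oligo package, whose versions are not stated. Log2 medians of the arrays ran from 7.61 to 7.67. An array gives no read depth.

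Probe sets were named by the platform annotation, whose build is not given: 21789 had 1 gene, 1621 several and 12146 none. The brightest probe set by mean represented a gene; 2 of 52 members had more than 1, and 7 chemokine probe sets with several genes stayed out. All 52 members matched RefSeq genes of GRCm38.p6, used for names, chromosomes and promoters.

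Tests were 2-sided and used R 4.3.3 with limma 3.58.1, adjusting by Benjamini-Hochberg over all genes (threshold 0.05), with 6 group means in 1 fit of 17 samples for direct contrasts, an additive fit for genotype, and slopes on list means. The fits were tested on simulated data. Members, gene lists, tests and alternatives were chosen with earlier results of these data known. Sample values are printed for the interferon-induced members, called members, the 3 smallest p-values per comparison, and the 5 highest means and SDs. Alternatives were 18 separate arrays, renormalization, median centring, probe set means, a filter on dim genes, a fit of the compared groups alone, an intensity trend, a replicate block and leaving out samples.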

Additional observations from a re-analysis of the deposited data

Results flagged for a closer look

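Cxcl5, a neutrophil-attracting ligand, read 6.98 in WT nulliparous replicate 2, against 5.87 to 5.97 in the other 3 tumours of that group. The gap to its nearest neighbour was 0.906 of the range of the group, above Dixon's 95% critical value for 4 samples. Chance flags about 1 in 20 such groups, and many members were looked at. Without it, a setting chosen after seeing the data, the WT parous minus nulliparous difference of Cxcl5 was -0.01 (means 5.89 and 5.90), against -0.28 with it. The neutrophil marker mean of that tumour was 6.51, the lowest of its group. That rank rested on Ltf, which read 7.69 there against 9.28 to 11.08 in the other 3 tumours. S100a8, another marker of the list, was the highest of the group there (6.28), so the mean does not rank these tumours by neutrophil content.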

How the results depend on the processing

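Alternatives were followed for members that were called or had the smallest p-values in the main fit, and in some comparisons for the interferon-induced ligands. Of their log2 differences, 972 kept their direction and side of the threshold, 10 gained a call, 30 lost one and 0 reversed. An intensity trend and a fit of the compared groups alone leave a log2 difference unchanged. These counts therefore do not measure how stable the members are in general. In the WT parity comparison 3 members were called as reported, 1 with the dimmest 40% of genes left out (which removes Cxcl10 and Ccl12 from the test), 2 with only the WT groups fitted (Cxcl9 and Ccl12), 1 with a replicate block and 0 to 7 with single samples left out. All genes called ran from 57 to 878 against 478. In the nulliparous comparison of KO without and WT with metastasis the 1 call became 0 with quantile normalization again, without the dimmest genes, with only these groups fitted and with the replicate block, and 0 to 5 with single samples left out. The cause was not tested. Members with a passing slope numbered 1, 3 and 5 within groups on the interferon, T and natural killer cell and macrophage lists, and 5, 5 and 14 without the 2 farthest samples, against 13, 8 and 10 as reported. The median of the members reversed in 3 comparisons where it lay near 0: parous KO against WT with metastasis (-0.03; 0.023 with quantile normalization, 0.019 with median centring, 0.030 without dim genes), metastasis in KO parous mice (-0.05; 0.0031 with quantile normalization, 0.024 with median centring, and -0.11 to 0.0037 with single samples left out), and KO without against WT with metastasis, parous (0.04; -0.042 to 0.076 with single samples left out, and -0.00054 without WT parous replicate 1). Replicate numbers did not pair the samples: correlations of same-numbered deviations ran from -0.302 to 0.407. The replicate block left Cxcl10 as the 1 call in the WT parity comparison (adjusted p = 0.0543 for Cxcl9 and 0.052 for Ccl12), and, with the lone tumour also left out, gave 0.43 for Cxcl13 between genotypes. Dim members limit what these arrays show: 30 of 52 lay in the dimmest 40% of genes.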
